A study of Homo sapiens with 6 samples.

Results

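The genes described here carry vitamin B12 into the cell and put it to use, and they were read in PC3, a cell line from a human prostate cancer, with and without knockdown of CTSZ, which encodes the lysosomal protease cathepsin Z. TCN2, the gene of the plasma carrier transcobalamin 2, was chosen for its large difference between the groups in these same libraries. The other 9 genes were chosen by role, as the receptor, the lysosomal exit proteins, the cytosolic chaperones and the enzymes of the pathway. These 10 genes are 10 of 61895 rows of the expression table, and all 10 were among the 14874 genes that averaged 1 TPM or more over the 6 libraries (kept genes). Because the same comparison of groups led to the choice, the values of the 10 genes are a description. No p-value is given for single genes of the 10, and the count past the threshold is given only beside that of all genes.

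The control group (shControl, genotype NC in the labels) is 3 libraries of PC3 cells with a lentiviral control vector, and the knockdown group (shCTSZ) is 3 libraries of PC3 cells with a lentiviral hairpin against CTSZ. Cells of both groups went through selection with an antibiotic (written purinomycin in the labels) to give stable populations, in 1640 or DMEM medium with FBS. Neither the origin of the 3 libraries of a group (separate cultures or 1) nor the number of hairpins is in the labels. A p-value here therefore measures the spread between these samples only, which may be technical. Values are TPM, a share of each library's transcripts corrected for their length, so levels of different genes can be compared. Read totals are lost in TPM, so the sequencing depth is unknown. Fold changes are shCTSZ minus shControl on the log2(TPM + 1) scale with the standard error (SE) from limma, which understates the change of low genes.

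As background, vitamin B12 in plasma is bound by transcobalamin, and the complex is taken up by the receptor CD320 and delivered to lysosomes. There the carrier is degraded by proteases, and the vitamin leaves through the membrane proteins LMBRD1 and ABCD4. In the cytosol MMACHC strips its upper ligand and MMADHC passes it on, either to methionine synthase (MTR), which its partner MTRR keeps active, or to mitochondria. There MMAB makes adenosylcobalamin for methylmalonyl-CoA mutase (MMUT), an enzyme of propionate breakdown.

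The targeted gene was low in the libraries labelled as its knockdown. CTSZ (ENSG00000101160) was at 92.8 ± 2.10 TPM (SD, n = 3) in shControl and 19.9 ± 1.69 TPM (SD, n = 3) in shCTSZ. This is a log2 fold change of -2.17 with an SE of 0.0655 (limma adjusted p = 2.49e-05). The libraries listed 23679 to 24714 genes above 0. Of 8 epithelial and prostate markers 3 were kept. The epithelial keratins KRT8 and KRT18 were abundant and both rose (1256 ± 5.38 to 2304 ± 98.1 TPM and 3149 ± 56.5 to 3859 ± 12.6 TPM, limma adjusted p = 2.70e-05 and 2.29e-04). EPCAM was at most 0.22 TPM in any library, CDH1 was at 0.21 to 2.59 TPM, and KLK3, which encodes prostate-specific antigen, was listed at 0 throughout. Of other cell types, 5 macrophage markers summed to 0.15 to 0.98 TPM in shControl and 0.07 to 0.37 TPM in shCTSZ. For 5 fibroblast markers the sums were 1.30 to 1.69 TPM and 0.33 to 0.71 TPM, with DCN and LUM listed at 0 in every library. Most of these sums was COL1A1 alone (1.26 to 1.69 TPM in shControl and 0.23 to 0.69 TPM in shCTSZ). For 5 endothelial markers the sums were 1.38 to 2.04 TPM and 2.01 to 2.52 TPM, of which CDH5 was the largest part (1.14 to 1.16 TPM and 1.37 to 1.54 TPM). The part of these cell types in the results was not tested. In bulk RNA, fewer cells that express a gene and less of its RNA per cell cannot be told apart.

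TCN2 stood far below its control level in every knockdown library. The gene (ENSG00000185339, GRCh38 chromosome 22, 30606838 to 30627278, plus strand) was at 27.7, 22.6 and 25.2 TPM in the shControl libraries and at 1.98, 2.58 and 2.12 TPM in the shCTSZ libraries. The groups were far apart, and no library stood between them. The means were 25.1 ± 2.54 and 2.23 ± 0.314 TPM (SD, n = 3 each), so shCTSZ held 8.86% of the control mean, an 11.3-fold difference in TPM. On the log2(TPM + 1) scale the difference was -3.02 (SE 0.109). Of all 14874 genes 8 had a lower log2 fold change than TCN2, and 1 of these, FRG2B, is protein-coding. TCN2 was chosen for its large difference in these libraries, so this place near the end is a description only. The difference in TCN2 was larger relative to control than that of CTSZ itself, which kept 21.4% of its control mean. The size depended on the pseudocount, at -3.44 with 0.1 and -2.06 with 5 added to TPM.

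**Figure D1:**
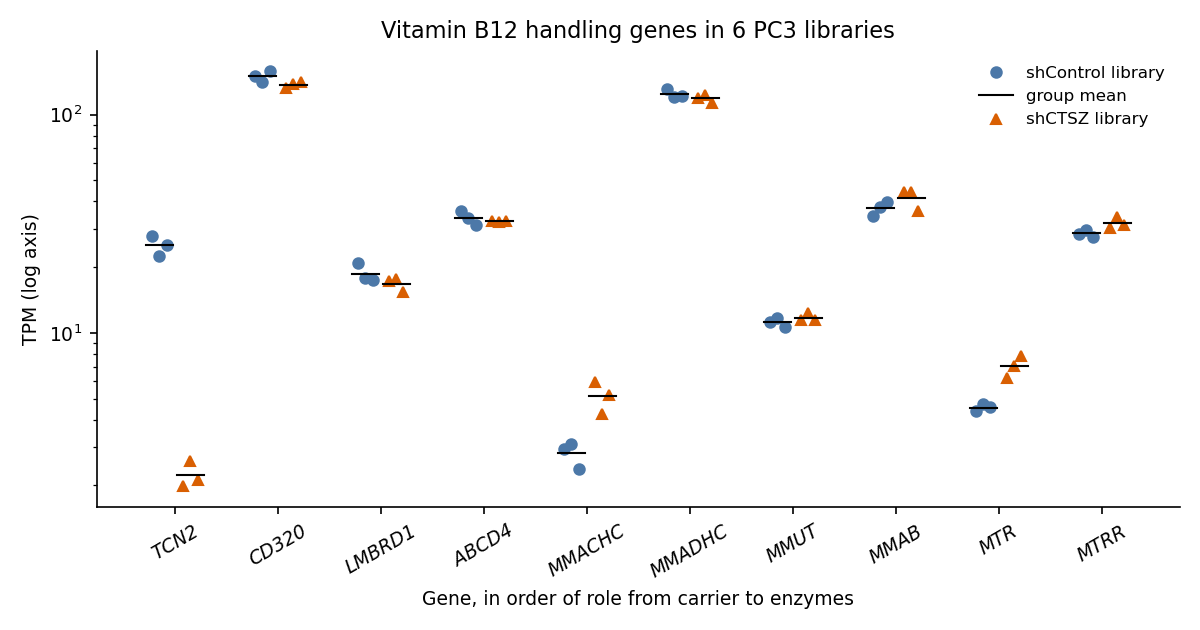
TPM of the 10 vitamin B12 handling genes (log axis) in 3 shControl libraries (circles) and 3 shCTSZ libraries (triangles), with a bar at each group mean. TCN2 lies at 22.6 to 27.7 TPM in shControl and 1.98 to 2.58 TPM in shCTSZ, MMACHC and MTR are higher in every shCTSZ library, and most other genes overlap.

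With its transcript this low, TCN2 changed place among the 10 genes. In shControl it was the sixth by mean level, after MTRR at 28.6 ± 1.08 TPM, whose library range overlapped its own, and before LMBRD1. In shCTSZ it was the lowest of the 10, below MMACHC at 5.14 ± 0.851 TPM, and their library ranges did not overlap. Carrier transcript was 16.0% to 18.4% of the receptor transcript CD320 in the shControl libraries and 1.49% to 1.88% in the shCTSZ libraries. CD320 and MMADHC were the 2 most abundant genes in both groups. In shControl MMAB overlapped ABCD4 in library range, and in shCTSZ ABCD4 overlapped MTRR; MTRR with TCN2 in shControl was the remaining overlap between neighbours in the order.

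The values of the receptor and of both lysosomal exit proteins overlapped between the groups. CD320, the cell surface receptor of the transcobalamin complex (ENSG00000167775, chromosome 19), was at 151, 141 and 157 TPM in shControl and 133, 137 and 141 TPM in shCTSZ. The highest knockdown library lay just above the lowest control library, so the groups overlapped. The log2 fold change was -0.12 (SE 0.05), and it was 0.07 after correction of every library for its dependence on GC content and length of the transcripts (the GC and length correction below). LMBRD1, a lysosomal membrane protein needed for cobalamin to reach the cytosol (ENSG00000168216, chromosome 6), was at 20.8, 17.9 and 17.4 TPM in shControl and 17.3, 17.7 and 15.3 TPM in shCTSZ. Its control replicate 1 was above all others, and the remaining libraries were mixed (log2 fold change -0.15, SE 0.0899). ABCD4, the transporter that works with LMBRD1 (ENSG00000119688, chromosome 14), was at 36.0, 33.5 and 31.2 TPM in shControl and 32.4, 32.3 and 32.5 TPM in shCTSZ. All 3 knockdown values fell within the control range (log2 fold change -0.05, SE 0.0607, and 0.01 under the GC and length correction).

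The stretch before MTR is shown here, since MTR was higher in shCTSZ and its start in RefSeq is also its start in GENCODE 29. RefSeq promoter windows (GRCh38.p14) of 300 bases, from 250 before to 50 after the RefSeq start, were matched for 8 of the 10 genes, and 2 (TCN2 and MTRR) had no match. Gene positions elsewhere in the text are those of GENCODE 29, and several RefSeq starts lie inside them. The RefSeq start lies 247 bases into MMACHC, 370 bases into MMAB, 122 bases into ABCD4 and 41 bases into MMADHC. For LMBRD1 it lies 70.6 kb inside the gene, so the region at its GENCODE start was not searched. The windows were searched on both strands for CCAAT (a binding site of NF-Y), GGGCGG (the GC box) and CACGTG (the E-box). For the motif of THAP11 and ZNF143 only a fixed string of letters was searched, with no mismatch allowed. The printed region is chr1:236795031-236795280 (plus strand), the 250 bases before the start of MTR, 5′ to 3′, and capitals mark CCAAT or, where it reads on the other strand, ATTGG.
MTR: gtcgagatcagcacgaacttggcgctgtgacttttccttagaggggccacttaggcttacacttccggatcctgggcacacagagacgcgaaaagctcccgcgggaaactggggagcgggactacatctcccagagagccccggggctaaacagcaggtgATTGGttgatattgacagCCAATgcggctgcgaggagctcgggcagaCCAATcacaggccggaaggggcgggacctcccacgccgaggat
The MTR window holds 3 CCAAT matches, which begin 90, 72 and 43 bases before the start. Of 35116 promoter windows 34.6% hold at least 1, 3.26% at least 3 and 0.359% at least 5. The MMAB window holds 5, and it shares 211 bases with the window of its neighbour MVK. The windows of MMACHC, MMADHC and MMUT hold 1 match each, and those of CD320, LMBRD1 and ABCD4 none. No window of the 8 genes holds the E-box, found in 7.26% of all windows, or the fixed string for THAP11 and ZNF143, found in 0.231%. Whether these windows, those of MTR and MMACHC included, hold the THAP11 and ZNF143 motif in other letters was not tested. The GC box is in 45% of all windows and in those of CD320, LMBRD1, ABCD4, MMUT, MMAB and MTR. No CCAAT match overlaps another of these motifs, and a match of letters is a description of the sequence only.

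The cytosolic proteins differed from each other. MMACHC, the enzyme that removes the upper ligand of incoming cobalamins (ENSG00000132763, chromosome 1, 45500053 to 45513382, plus strand), was at 2.95, 3.09 and 2.39 TPM in shControl and 5.97, 4.27 and 5.18 TPM in shCTSZ. Every knockdown library was above every control library. The means were 2.81 ± 0.370 and 5.14 ± 0.851 TPM (SD, n = 3 each), 1.83-fold higher in shCTSZ, with a log2 fold change of 0.68 (SE 0.144). MMADHC, which directs cobalamin to the cytosolic or the mitochondrial enzyme (ENSG00000168288, chromosome 2), was at 130, 121 and 122 TPM in shControl and 119, 123 and 113 TPM in shCTSZ. Its groups overlapped (log2 fold change -0.07, SE 0.0485), and the difference was -0.16 under the GC and length correction. MMADHC transcript was 39.1 to 51.1 times that of MMACHC in shControl and 20.0 to 28.9 times in shCTSZ.

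MMACHC lies across another gene that was higher too. PRDX1, which encodes the antioxidant enzyme peroxiredoxin 1, shares 2347 bases with MMACHC on the other strand, and the use of strand in counting is not given in the sources used here. PRDX1 rose from 162 ± 5.11 to 264 ± 14 TPM (log2 fold change 0.70, SE 0.0470, limma adjusted p = 2.01e-04). As a share of PRDX1, MMACHC was at 1.76%, 1.92% and 1.52% in shControl and 2.14%, 1.70% and 1.98% in shCTSZ, so the groups overlapped in this ratio. The part that PRDX1 reads have in the MMACHC values was not tested. CCDC163, whose GENCODE start lies 26 bases from that of MMACHC on the other strand, did not pass the threshold (5.32 ± 0.605 and 4.63 ± 0.125 TPM, limma adjusted p = 0.269).

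On the methionine branch both genes were higher in every knockdown library than in any control library, as were 29.1% of all kept genes. MTR, methionine synthase, which takes a methyl group from folate to homocysteine (ENSG00000116984, chromosome 1, 236795281 to 236903981, plus strand), was at 4.37, 4.71 and 4.56 TPM in shControl and 6.20, 7.06 and 7.81 TPM in shCTSZ. The groups did not overlap, and the control libraries were close together. The means were 4.55 ± 0.170 and 7.02 ± 0.806 TPM (SD, n = 3 each), 1.54-fold higher in shCTSZ, with a log2 fold change of 0.53 (SE 0.103). Under the GC and length correction the log2 fold change was 0.34. MTRR, the reductase that restores inactive methionine synthase (ENSG00000124275, chromosome 5), was at 28.4, 29.7 and 27.6 TPM in shControl and 30.3, 34.0 and 31.0 TPM in shCTSZ. Its groups did not overlap either, though the gap was small (log2 fold change 0.15, SE 0.0614). MTRR was 6.05 to 6.49 times MTR in shControl and 3.97 to 4.89 times in shCTSZ.

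The mitochondrial genes showed no separation of the groups. MMUT, the adenosylcobalamin-dependent mutase (ENSG00000146085, chromosome 6), was at 11.2, 11.7 and 10.7 TPM in shControl and 11.5, 12.3 and 11.4 TPM in shCTSZ (log2 fold change 0.06, SE 0.0687). The sign turned under the GC and length correction, to -0.09. MMAB, the adenosyltransferase that makes its cofactor (ENSG00000139428, chromosome 12), was at 34.5, 37.7 and 39.5 TPM in shControl and 44.3, 44.2 and 36.3 TPM in shCTSZ. In MMAB 2 knockdown libraries were above all controls and the third lay among them (log2 fold change 0.15, SE 0.0920). MVK, a gene of the cholesterol pathway whose GENCODE start lies 619 bases from that of MMAB on the other strand, was at 35.1 ± 1.85 TPM in shControl and 34.8 ± 1.89 TPM in shCTSZ. The log2 fold change of MVK was -0.01 with a 95% interval from -0.16 to 0.14 (limma adjusted p = 0.896), and its sign turned under some settings.

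Over the 10 genes, 3 had a limma adjusted p under 0.05 (TCN2 lower, MMACHC and MTR higher), against 34.5% of all 14874 genes, and groups did not overlap in 4 (TCN2, MMACHC, MTR and MTRR), against 50.3% of all genes. For higher values in shCTSZ that is 3 of 10, against 29.1% of all genes, and for lower values 1 of 10, against 21.2%. The median log2 fold change of the 10 was 0.01, against 0.04 over all genes, and for the 7 without a call it ran from -0.15 to 0.15. Under median-of-ratios scaling and without shControl replicate 2 the count past the threshold was 4, with CD320 lower (5124 and 3841 of 14874 genes passed). Under the GC and length correction it was also 4, with MMADHC lower (4480 of 14324 genes passed). With a filter at an average of 5 TPM, which leaves MMACHC out, it was 2 (4655 of 10676 genes passed). Nothing is read from these counts, since the comparison was used in choosing the genes.

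PES1, a ribosome biogenesis factor that overlaps the start of TCN2 by 246 bases on the other strand, was at 104 ± 3.39 TPM in shControl and 115 ± 4.58 TPM in shCTSZ. PES1 passed the threshold upwards (log2 fold change 0.14, limma adjusted p = 0.0472), a call kept under 5 of 14 alternatives, with adjusted p from 0.0118 to 0.167. It was lost without shControl replicate 1, 2 or 3 (adjusted p 0.0563, 0.0999 and 0.114) and without shCTSZ replicate 1 or 3 (0.113 and 0.105). Within 250 kb on either side of TCN2, a window chosen after values were seen, 10 other genes had a mean of at least 1 TPM. Of these 3 rose (SF3A1, PES1 and DUSP18), 3 fell (RNF215, MTFP1 and OSBP2) and 4 did not pass the threshold, where 19.8% of all kept genes rose and 14.7% fell. Without single libraries SF3A1 lost its call (adjusted p up to 0.0816, without shCTSZ replicate 1 or 3), as did DUSP18 (0.0531, without shCTSZ replicate 2). The log2 fold changes of the 10 ran from -0.50 for OSBP2 to 0.45 for DUSP18. Other genes that overlap or face one of the 10 genes and were kept did not pass the threshold: CENPQ beside MMUT (log2 fold change 0.09, adjusted p = 0.386), FASTKD3 within MTRR (0.15, adjusted p = 0.228) and ENSG00000167774, which shares 74 bases with CD320 on the same strand (-0.17, adjusted p = 0.712).

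Genes close to these 10 in metabolism were counted with lists that hold none of them. Over 4 lists of 62 genes, 49 were kept, and 15 of these rose and 3 fell, or 30.6% and 6.12%. Of all kept genes 19.8% rose and 14.7% fell. The 15 rises became 8 without shControl replicate 3, 8 without shCTSZ replicate 2 or 3, and 9 without shControl replicate 2. The 3 falls became 2 without shControl replicate 1 or 2. Median-of-ratios scaling gave 11 rises and 5 falls, and no filter on low values gave 10 and 4. The median log2 fold change of the 49 was 0.13, against 0.04 over all genes. Most of the calls were in the methionine cycle and folate cycle lists.

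Other proteins that bind, move or control vitamin B12 were mostly low or without a call. Of 11 such genes 6 were kept. HCFC1, a transcriptional coregulator that acts on MMACHC, rose from 27.0 ± 0.541 to 33.8 ± 0.997 TPM (log2 fold change 0.31, limma adjusted p = 0.00353), and none fell by limma (1 had an unadjusted p under 0.05). Its partners THAP11 and ZNF143 did not pass the threshold (log2 fold changes 0.12 and 0.13). ABCC1, an exporter of B12 from cells, was at 27.2 ± 0.955 and 24.2 ± 1.40 TPM (log2 fold change -0.16, adjusted p = 0.0781), and passed downwards under median-of-ratios scaling (adjusted p = 0.0250). The other carriers were near 0. TCN1, which encodes haptocorrin, was at 0.09 to 0.13 TPM in shControl and listed at 0 in each shCTSZ library, and CBLIF, which encodes intrinsic factor, was listed at 0 throughout. The intestinal uptake receptor genes CUBN, AMN and LRP2 were at most 0.37 TPM in any library.

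Propionate and branched-chain amino acid breakdown, which feeds MMUT, gave few calls. Of 14 genes, all kept, 2 rose and none fell by limma (5 higher and 0 lower at an unadjusted p under 0.05). SUCLG2, a subunit of succinate-CoA ligase, rose from 18.0 ± 0.952 to 22.6 ± 1.64 TPM (log2 fold change 0.31, limma adjusted p = 0.0171). HIBCH, of valine breakdown, rose from 31.6 ± 1.19 to 35.5 ± 1.28 TPM (0.16, adjusted p = 0.0498), a call kept under 2 of 14 alternatives and lost when any 1 of the 6 libraries was left out. The SUCLG2 call needed replicates 2 and 3 of both groups: leaving out any 1 of these 4 libraries gave an adjusted p from 0.0591 to 0.0671. With 1 library left out, the list had 1 rise without shControl replicate 1 or 2 or shCTSZ replicate 1. It had 0 without shControl replicate 3 or shCTSZ replicate 2 or 3. The rise without shControl replicate 2 was another gene of the list, not SUCLG2 or HIBCH (limma adjusted p = 0.061 and 0.111). Under the GC and length correction the list had 0 rises.

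The methionine cycle, which MTR closes, was counted with a list that also holds relatives of its enzymes and a salvage gene. Of the 9 kept genes of this list 4 rose and 1 fell, so the count is not one of cycle enzymes alone. MAT2A, which makes S-adenosylmethionine from methionine, was at 93.0, 91.7 and 82.7 TPM in shControl and 130, 147 and 136 TPM in shCTSZ. The groups were well apart, with means of 89.1 ± 5.65 and 138 ± 8.55 TPM (log2 fold change 0.62, SE 0.0638, limma adjusted p = 8.23e-04). AHCYL1, a relative of S-adenosylhomocysteine hydrolase, rose from 29.2 ± 1.03 to 38.8 ± 1.70 TPM (0.40, adjusted p = 0.00230), and AHCYL2 from 2.93 ± 0.159 to 4.60 ± 0.692 TPM (0.50, adjusted p = 0.0204). The hydrolase itself, AHCY, had no call (log2 fold change 0.02). The remaining rise was MTAP, of the methionine salvage pathway (0.41), a call that was lost when replicate 2 or 3 of either group was left out (adjusted p up to 0.110). CBS, which takes homocysteine out of the cycle to cystathionine, was at 214, 226 and 206 TPM in shControl and 132, 151 and 157 TPM in shCTSZ. No CBS values overlapped between groups (log2 fold change -0.55, SE 0.0685, adjusted p = 0.00165). The reference annotates a near-identical copy, CBSL, which fell as well (109 ± 6.42 to 85.0 ± 4.68 TPM), so the division of reads between the copies is uncertain. The count of rises was 2 without shControl replicate 2 or 3 or shCTSZ replicate 3, and AHCYL2 was one of the calls lost (adjusted p 0.0525, 0.0603 and 0.0512).

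In the folate cycle, which supplies the methyl group for MTR, 8 of 20 kept genes rose and 2 fell. TYMS, thymidylate synthase, rose from 265 ± 3.68 to 313 ± 4.99 TPM (log2 fold change 0.24, limma adjusted p = 0.00138), and SLC25A32, the mitochondrial folate carrier, from 20.2 ± 1.36 to 27.1 ± 1.16 TPM (0.41, adjusted p = 0.00467). FPGS, which adds glutamates to folate and so retains it in cells, fell from 52.8 ± 1.02 to 43.3 ± 0.720 TPM (-0.28, adjusted p = 0.00308). The FPGS call was lost under the GC and length correction, at -0.09 (adjusted p = 0.146). MTHFD1L, of mitochondrial folate metabolism, was the other fall (-0.26, adjusted p = 0.0139), lost without shControl replicate 1 or 2 (adjusted p up to 0.0552). The count of rises was 5 under median-of-ratios scaling, 5 when replicate 2 or 3 of shControl or replicate 1 or 3 of shCTSZ was left out, and 4 without shCTSZ replicate 2. The count of falls was 1 without shControl replicate 1 or 2.

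**Figure D2:**
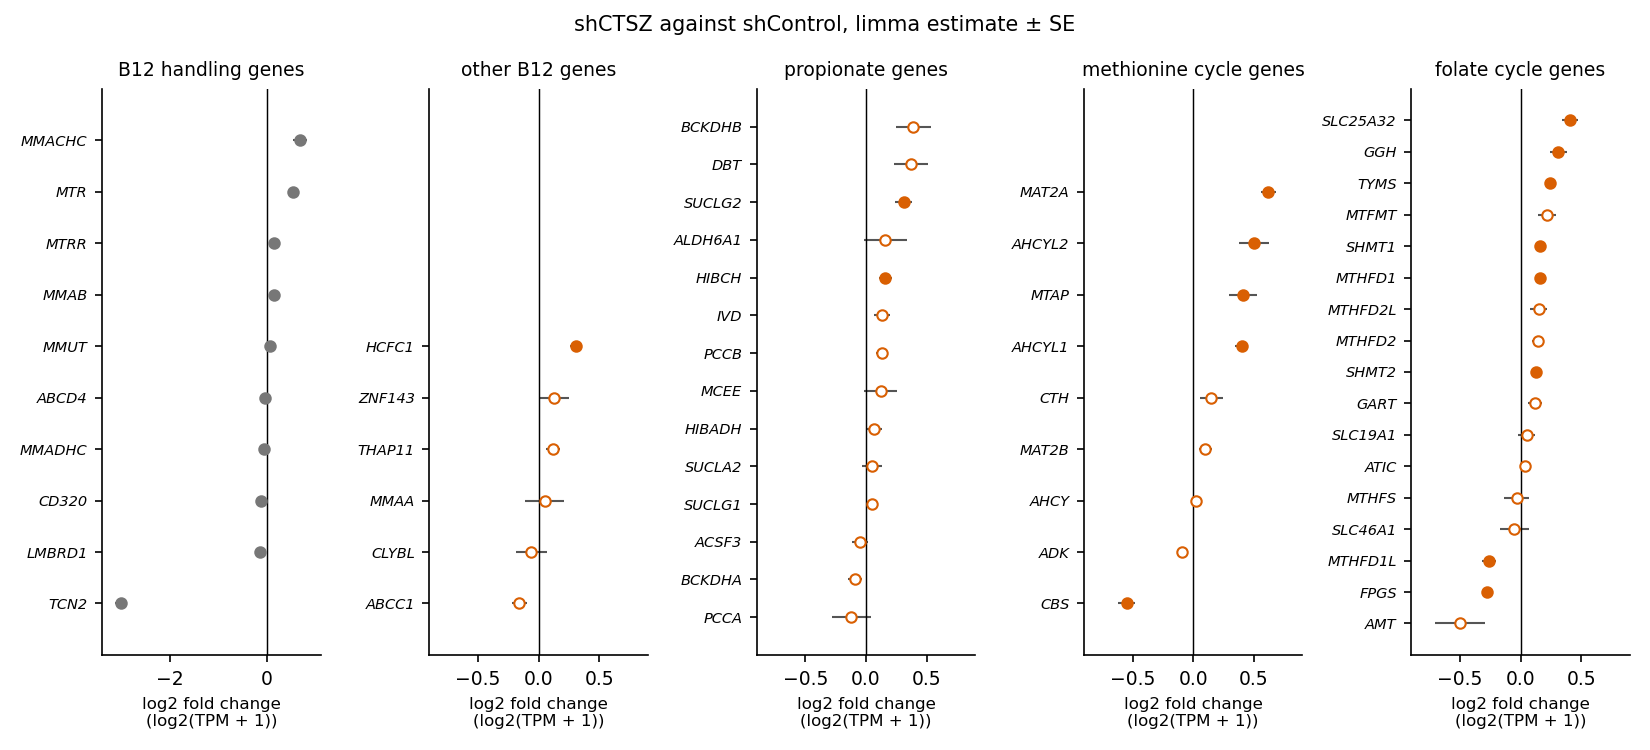
Log2 fold change (shCTSZ minus shControl, log2(TPM + 1) scale) with SE for the 10 vitamin B12 handling genes (grey, first panel, with a wider axis) and kept genes of 4 related lists (3 of the folate list are not drawn). Filled orange points passed a limma adjusted p of 0.05. In the methionine cycle list, which also holds enzyme relatives and a salvage gene, 4 of 9 kept genes rose. TCN2 at -3.02 lies outside the range of every other gene shown.

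Profiles over the 6 libraries were compared with that of TCN2 by the root mean square difference of log2(TPM + 1). Each gene was taken relative to its shControl mean. Only genes averaging 5 TPM or more in their higher group, with a symbol that is no placeholder, were compared. Among these the nearest were, in order, FRG2B (0.14), RNU6-1069P (0.17), DHRS2 (0.41), ART3 (0.45) and RGMA (0.46). DHRS2 encodes a short-chain dehydrogenase and RGMA a BMP coreceptor. FRG2B belongs to a family of similar copies and RNU6-1069P is a small RNA pseudogene, so their values are uncertain. The log2 fold changes of the 5, in the same order, were -3.02, -2.83, -2.45, -2.43 and -2.55. With each gene set relative to its shControl mean, the distance mostly follows the fold change, the value by which TCN2 was chosen. The likeness therefore mainly restates large falls and is no separate result. With 3 libraries a group, it describes these libraries only.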

How the data were processed

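RNA of 3 shControl and 3 shCTSZ libraries of PC3 cells was sequenced after TRIzol extraction and an mRNA-seq preparation with a kit spelled SMAARTER, per the labels' protocols. The authors deposited 1 table of TPM values, and the submitters' processing notes name fastp, RSEM and the build GRCh38.p13. Versions, the aligner, the annotation release and whether counting used strand: not given in the sources used here. Every TPM column sums to about the same total, so a rise in some genes lowers others. Columns were matched to samples by the descriptions in the labels.

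Gene symbols came from a table of Ensembl IDs (61369 of 61895 rows paired), and positions, transcript lengths and GC content from GENCODE 29 on GRCh38 (96.3% of 14874 kept rows). Genes averaging 1 TPM or more over all libraries were kept. On log2(TPM + 1) of these, limma 3.58.1 (R 4.3.3) was fitted with group as the only term and a trend of variance on mean. P-values were adjusted by Benjamini-Hochberg over all kept genes, and the threshold was 0.05. Exact permutation of 3 against 3 libraries cannot go below a two-sided p of 0.10 and was not used. The script was tested on simulated data. Python 3.11.15, pandas 2.3.3 and matplotlib 3.10.9 made tables and plots.

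The members and lists were chosen with earlier results of these data known. Named genes were the 10 members, CTSZ and up to 4 called genes with the smallest adjusted p in each list. In a list where none passed, 2 were named as values only. Also named were kept genes that overlap a member or start within 1 kb of it on the other strand. The 5 nearest profiles to TCN2 were named too, from 10479 candidates. Candidates were kept genes averaging 5 TPM or more in their higher group. Genes with no symbol or with a placeholder name (an Ensembl ID, a LINC number or a clone name) were not candidates. Other genes (the TCN2 neighbours, CBSL, and list genes beyond this rule) were named after their values were seen. Alternatives were pseudocounts of 0.1 and 5, no filter or a filter at an average of 5 TPM, median-of-ratios scaling, no variance trend, a replicate block, removal of GC and length trends by splines with 5 degrees of freedom, and leaving out each library. Some genes of the lists are counted but not reported here by name.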

Additional observations from a re-analysis of the deposited data

How the results depend on the processing

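The log2 fold change of TCN2, the value by which it was chosen, was -3.44 at a pseudocount of 0.1, -2.06 at 5, and -3.09 to -2.95 with 1 library left out. Genes past the threshold numbered 3717 to 4351 with 1 library left out, and median-of-ratios scaling gave 2463 higher and 2661 lower against 2950 and 2185. The other vitamin B12 genes had 2 rises with the GC and length trend removed, and 1 fall with no filter or with median-of-ratios scaling. The propionate list had 1 rise with a pseudocount of 0.1, no filter, median-of-ratios scaling or no variance trend, 0 with the replicate block or the GC and length trend removed, and 0 to 1 with 1 library left out. The methionine list had 2 rises with no filter or the replicate block and 2 to 4 with 1 library left out, and 2 falls with median-of-ratios scaling or the GC and length trend removed. The folate list had 5 rises with median-of-ratios scaling or the replicate block and 4 to 8 with 1 library left out. Its falls numbered 1 with the GC and length trend removed and 1 to 2 with 1 library left out. MVK changed sign, to 0.16 with the GC and length trend removed, and ran from -0.06 to 0.03 with 1 library left out (0.01 without shControl replicate 2 or 3). The cause was not tested. Same-numbered libraries did not deviate together (correlations -0.09, -0.02 and -0.04), so the numbers were not taken as pairs, and the replicate block gave 4026 genes past the threshold, 8 rises over the 4 lists, and TCN2 at -3.02. TPM hold no depth, so counting error of low genes such as MMACHC could not be given.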
